A study of Mus musculus with 4 samples.

Results

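Endothelial cells line blood vessels, and 10 genes of these cells and of the signal that guides them were described across spatial transcriptomes of mouse embryonic heads. The genes are Pecam1, Kdr, Flt1, Tek, Tie1, Erg, Esam, Cldn5, Emcn and Vegfa, taken by symbol from the 19465 genes of the count matrices, and all 10 were found and tested in every comparison. Coronal sections through the middle of the palate came from wild-type C57BL/6J heads at embryonic day 14.5 (E14.5) and day 15.5 (E15.5), fixed, embedded in paraffin and placed on Visium capture areas, where each spot collects RNA from several cells. Each stage had 2 capture areas, 1 with a single section (replicate 1) and 1 with 3 sections (replicates 2, 3 and 4). The areas of both stages carried no treatment or engineered allele, and a capture area is 1 library, so that n is 4 areas for a tissue and 2 areas for a stage. Whether the areas stand for separate litters was not given. For stage, p-values then measure only the spread between these areas. In the other tests each area is compared with itself, and p-values measure how far tissue or zone differences vary from area to area. Either spread may be technical.

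Vessels grow toward cells that secrete vascular endothelial growth factor A, the product of Vegfa, which endothelial cells sense through the receptor kinases encoded by Kdr and Flt1, the latter also acting as a trap for the ligand. Tek and Tie1 encode a second receptor pair, of which Tek binds the angiopoietins and steadies the vessel. Erg is a transcription factor of the ETS family that maintains endothelial identity, and it is also known from developing cartilage. Pecam1 and Esam encode adhesion molecules of endothelial cell contacts, Cldn5 encodes the tight junction protein of the blood-brain barrier, and Emcn encodes a sialomucin of capillaries and veins. In the developing head, vessels invade bone and muscle, enter the brain from its surface and stay out of most cartilage.

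On the mouse build GRCm38, the VEGF receptor genes both lie on chromosome 5, Kdr at chr5:75932827-75978458 and Flt1 at chr5:147561604-147726011. The genes of the second receptor pair both lie on chromosome 4, Tek at chr4:94739289-94874976 and Tie1 at chr4:118471191-118490061. Erg and Cldn5 share chromosome 16, at chr16:95359169-95586593 and chr16:18776847-18778262. Pecam1 lies at chr11:106654217-106750628, Esam at chr9:37528078-37538319, Emcn at chr3:137341067-137432185 and Vegfa at chr17:46016993-46032369. All 10 are protein-coding genes in the GENCODE annotation of that build, and the count files hold 1 value per gene and spot with no exon or isoform.

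Promoter sequences are shown for Flt1, Erg and Cldn5, a receptor that was low in brain, the gene that stood apart in cartilage and the 1 gene of the 10 called higher in brain. Of the 10 genes, 8 had entries among the RefSeq promoters of GRCm38.p6, 11 entries in all, and Esam and Pecam1 had none. Each sequence is the 250 bases before the start site, on the strand of the gene, with capitals marking the ETS motif AGGAAG or its complement CTTCCT. The windows are chr5:147726012-147726261 on the minus strand for Flt1, chr16:95586594-95586843 on the minus strand for the upstream start of Erg, and chr16:18776597-18776846 on the plus strand for Cldn5.
Flt1: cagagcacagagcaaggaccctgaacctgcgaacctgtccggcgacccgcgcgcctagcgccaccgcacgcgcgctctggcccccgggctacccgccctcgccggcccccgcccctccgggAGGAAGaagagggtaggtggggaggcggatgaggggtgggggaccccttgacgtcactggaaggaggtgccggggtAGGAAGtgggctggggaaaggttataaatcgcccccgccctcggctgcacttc
Erg: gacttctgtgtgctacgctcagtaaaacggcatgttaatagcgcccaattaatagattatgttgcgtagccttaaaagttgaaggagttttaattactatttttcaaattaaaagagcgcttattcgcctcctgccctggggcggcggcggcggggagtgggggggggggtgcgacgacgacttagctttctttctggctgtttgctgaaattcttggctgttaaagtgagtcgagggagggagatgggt
Cldn5: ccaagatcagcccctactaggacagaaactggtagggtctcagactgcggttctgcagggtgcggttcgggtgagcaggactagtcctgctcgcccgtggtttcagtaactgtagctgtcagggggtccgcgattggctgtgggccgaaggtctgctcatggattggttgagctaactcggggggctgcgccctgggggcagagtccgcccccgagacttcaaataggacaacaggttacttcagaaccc
The Flt1 window held 2 copies of the motif, and those shown for Erg and Cldn5 held 0. Erg had 2 further entries, of which the one at chr16:95459349-95459598 held 1 copy. Of the genes not shown, Emcn held 2 copies and Tie1 held 1, and the entries of Kdr, Tek and Vegfa held 0. Of all 32851 mouse promoter windows of this length, 29.5% held the ETS motif on either strand, so a match is common and is given only as a description. The hypoxia response core ACGTG or its complement, searched on both strands, was in 0 of the 3 windows shown and in 16.6% of all promoter windows. Among the 11 entries of the 10 genes, 1 held it, the downstream Vegfa entry at chr17:46025164-46025413.

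The 4 areas held 6357 spots over tissue and between 15438992 and 109127953 unique molecular identifiers (UMIs, 1 per captured transcript). Shallow tissue lay in both E14.5 areas. The E14.5 replicate 1 area had a median of 6752 UMIs per spot against 45059 to 64051 in the others, and within the E14.5 area of replicates 2 to 4 section A had a median of 10038 UMIs against 59411 and 65616 in the other 2 sections. At E14.5, 108 spots of the first and 111 of the second area held fewer than 1000 UMIs, against 0 and 1 at E15.5. Levels are given in CPM, the UMIs of a gene per 1000000 UMIs of the same spots, with the SD over the 4 areas. They compare a gene between tissues, not genes with each other. Intervals, where given, cover counting error only. Spots were given to a tissue by marker genes that include none of the 10, which placed 1509 in brain, 528 in bone, 302 in cartilage, 788 in muscle, 479 in skin, 338 in eye, 321 in peripheral nerve and 270 in olfactory epithelium, and left 1822 with no tissue. In brain, bone, cartilage, muscle and skin spots the median score was 0.497 to 0.684 for the own tissue and at most 0.09 for the other 4. Scores for eye, peripheral nerve and olfactory epithelium competed too and are not in those medians. Spots with no second score above 0.15 numbered 1232 in brain, 325 in bone, 43 in cartilage, 404 in muscle and 245 in skin. Between 37 spots (cartilage) and 220 spots (muscle) lay close to the threshold, and a spot can mix tissues.

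Brain spots held the lowest mean level of 9 of the 10 genes, and Cldn5 was the exception, with its highest level there. In edgeR's quasi-likelihood test of brain against the mean of the other 4 tissues, 9 genes were lower and 1 was higher at an adjusted p under 0.1, where 44.3% of all 13766 genes tested were lower and 40.6% were higher. With so many genes called, the 9 lower genes are read by their sizes. The median log2 difference was -0.05 over all genes, against -1.30 ± 0.07 (SE) for Erg, -1.14 ± 0.08 for Vegfa, -1.06 ± 0.16 for Emcn and -1.04 ± 0.07 for Pecam1. The receptor genes differed less, by -0.99 ± 0.17 for Tie1, -0.78 ± 0.08 for Tek, -0.58 ± 0.08 for Kdr and -0.44 ± 0.07 for Flt1, and Esam by -0.68 ± 0.08. The adjusted p of these 9 ranged from 1.41e-12 (Erg) to 2.41e-05 (Tie1). For the lower endothelial genes, Vegfa apart, fewer endothelial cells and less RNA per endothelial cell cannot be told apart in these sums of spots. Which cells gave the Vegfa counts was not tested. Brain was the lowest of the 5 tissues in 4 of 4 areas for 8 of the 9 genes and in 3 of 4 areas for Tie1. Each of the 9 calls was also made without any 1 of the areas.

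**Figure D1:**
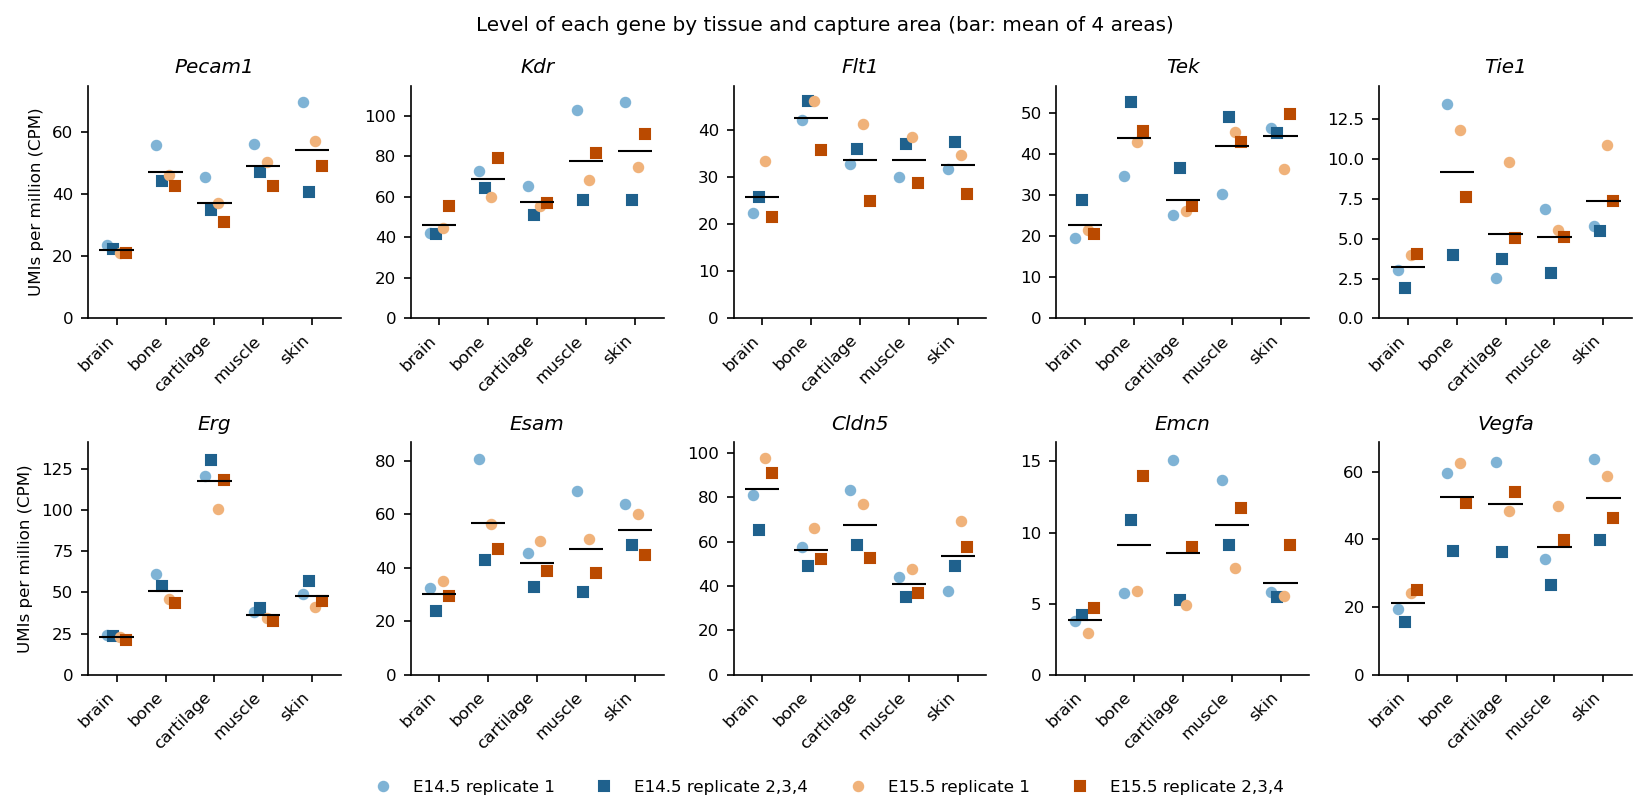
Level of each of the 10 genes in CPM (vertical axes, linear, from 0) in brain, bone, cartilage, muscle and skin spots, with a point for each of the 4 capture areas and a bar at their mean. Brain is the lowest tissue by mean for every gene but Cldn5, and Erg in cartilage sits apart, with all 4 areas between 100.7 and 130.4 CPM.

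Vegfa, the ligand, held 21.1 ± 4.38 CPM in brain (SD, n = 4), 37.6 ± 9.90 in muscle, 50.4 ± 11.2 in cartilage, 52.1 ± 10.97 in skin and 52.4 ± 11.6 in bone. Brain values were 19.5 and 15.7 CPM in the E14.5 areas and 24.3 and 25.1 CPM in the E15.5 areas, all below the lowest muscle value of 26.5 CPM. In bone the areas held 59.6, 36.7, 62.5 and 50.9 CPM, in the order E14.5 replicate 1, E14.5 replicates 2 to 4, E15.5 replicate 1 and E15.5 replicates 2 to 4. The 2 replicate 1 areas were thus the highest in bone, and bone, skin and cartilage overlapped. Against the mean of the other tissues Vegfa was higher in bone by 0.54 ± 0.09 on the log2 scale (adjusted p = 3.93e-05, edgeR), in cartilage by 0.32 ± 0.09 (adjusted p = 0.0125, edgeR) and in skin by 0.31 ± 0.09 (adjusted p = 0.00806, edgeR). In muscle the difference was -0.03 ± 0.09. The cartilage call was lost without the E14.5 area of replicates 2 to 4 (0.29, adjusted p = 0.122, edgeR) and without the E15.5 area of replicates 2 to 4 (0.25, adjusted p = 0.169, edgeR).

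Kdr, the main signalling receptor for the ligand, held 46.1 ± 6.57 CPM in brain, 57.3 ± 6.04 in cartilage, 69.1 ± 8.69 in bone, 77.8 ± 19.2 in muscle and 82.8 ± 21.0 in skin. Every pair of neighbours in that order overlapped between areas, and the wide spread in skin runs from 58.2 CPM in the E14.5 area of replicates 2 to 4 to 107.1 CPM in the E14.5 replicate 1 area. Flt1 ran from 25.8 ± 5.41 CPM in brain through 32.6 ± 4.74 in skin, 33.7 ± 4.87 in muscle and 33.8 ± 6.85 in cartilage to 42.7 ± 4.91 in bone. Bone was the highest tissue for Flt1 by mean, though its areas overlapped those of cartilage, and the test gave 0.55 ± 0.07 on the log2 scale for bone (adjusted p = 4.58e-06, edgeR). Kdr was higher than the mean of the other tissues in muscle (0.31 ± 0.08), skin (0.28 ± 0.09) and bone (0.26 ± 0.09) and lower in cartilage (-0.27 ± 0.10). The Flt1 differences in muscle (0.10 ± 0.07), cartilage (-0.06 ± 0.08) and skin (-0.14 ± 0.08) did not pass the test.

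Tek, the angiopoietin receptor, held 22.6 ± 4.18 CPM in brain, 28.8 ± 5.26 in cartilage, 41.9 ± 8.22 in muscle, 43.9 ± 7.51 in bone and 44.4 ± 5.68 in skin. The 3 highest tissues overlapped throughout. It was higher in bone (0.53 ± 0.09), muscle (0.41 ± 0.09) and skin (0.26 ± 0.09) and lower in cartilage (-0.42 ± 0.10). Tie1, its partner, was sparse, with 1 to 93 UMIs per area and tissue, and ran from 3.25 ± 1.02 CPM in brain to 9.22 ± 4.26 in bone. Its level in the E14.5 replicate 1 cartilage rests on 1 UMI (2.52 CPM, exact Poisson interval 0.0638 to 14.04). Every pair of neighbours overlapped for Tie1, and the test called it higher in bone (0.73 ± 0.17) and skin (0.52 ± 0.18).

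Erg, the endothelial ETS factor, held 117.6 ± 12.4 CPM in cartilage, 2.30 times its mean of 51.2 ± 8.16 CPM in bone. The cartilage values were 120.9 CPM (48 UMIs), 130.4, 100.7 and 118.4 CPM, in the area order given for Vegfa. Every cartilage value lay above every bone value, which ran from 43.4 to 61.5 CPM. Skin followed with 48.0 ± 6.64 CPM, then muscle with 36.5 ± 3.79 and brain with 22.9 ± 1.45, and of these neighbours only bone and skin overlapped. The log2 difference of cartilage from the mean of the other tissues was 1.61 ± 0.07 (adjusted p = 1.90e-13, edgeR), in cartilage spots where 21.6% of all genes were called higher and 17.4% lower. It ranged from 1.42 to 2.05 over the alternative settings. In muscle Erg was lower, by -0.43 ± 0.07 (adjusted p = 5.39e-05, edgeR). The bone call was slight, at 0.18 ± 0.07 (adjusted p = 0.0536, edgeR), and was lost without the E14.5 replicate 1 area (0.15, adjusted p = 0.106, edgeR), the E14.5 area of replicates 2 to 4 (0.18, adjusted p = 0.222, edgeR) or the E15.5 replicate 1 area (0.14, adjusted p = 0.230, edgeR).

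The other genes gave no call of that kind in cartilage. Erg and Vegfa were the 2 of 10 higher there, while Tek (-0.42 ± 0.10), Kdr (-0.27 ± 0.10) and Pecam1 (-0.21 ± 0.09) were lower and the remaining 5 did not pass. Of all 13766 genes tested, 21.6% were called higher and 17.4% lower in cartilage. No finding is read from these counts or from those of the next list. Of 25 other endothelial genes, all listed as further markers of these cells, 3 were higher in cartilage (Eng, Clec14a and Fli1) and 5 lower, with their summed level between 987 and 1083 CPM in cartilage against 1264 to 1319 CPM in bone. Fli1, an ETS factor closely related to Erg, was 0.80 ± 0.12 higher (adjusted p = 2.4e-05, edgeR), and Cdh5, the endothelial cadherin, differed by -0.03 ± 0.07. Eng, Clec14a and Fli1 were named after their values were seen, and Cdh5 by the rule of the smallest p in brain. Without the E15.5 area of replicates 2 to 4 the Kdr call in cartilage was lost (-0.19, adjusted p = 0.338, edgeR). The Pecam1 call was lost without that area (-0.17, adjusted p = 0.371, edgeR), the E15.5 replicate 1 area (-0.20, adjusted p = 0.207, edgeR) or the E14.5 area of replicates 2 to 4 (-0.26, adjusted p = 0.107, edgeR).

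Pecam1, the adhesion molecule used most widely to mark vessels, held 22.1 ± 1.24 CPM in brain, 37.1 ± 6.01 in cartilage, 47.1 ± 5.90 in bone, 49.0 ± 5.68 in muscle and 54.1 ± 12.2 in skin. The brain areas spanned only 21.1 to 23.7 CPM and lay below every cartilage value, the lowest of which was 31.2 CPM. The highest value of all was 69.5 CPM in skin of the E14.5 replicate 1 area. It was higher in bone (0.40 ± 0.08), muscle (0.43 ± 0.07) and skin (0.42 ± 0.08). Esam ran from 30.1 ± 4.81 CPM in brain to 56.7 ± 17.0 in bone, with every pair of neighbours overlapping, and was higher in bone (0.46 ± 0.08) and skin (0.29 ± 0.09). Emcn, the capillary and venous sialomucin, rested on 2 to 194 UMIs per area and tissue and ran from 3.88 ± 0.72 CPM in brain to 10.5 ± 2.75 in muscle. Its brain values of 2.95 to 4.65 CPM lay below those of every other tissue, and it was higher in bone (0.73 ± 0.16) and muscle (0.62 ± 0.15).

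Cldn5 went the other way. It held 83.6 ± 14.1 CPM in brain, 67.6 ± 14.6 in cartilage, 56.2 ± 7.51 in bone, 53.4 ± 13.5 in skin and 40.9 ± 5.96 in muscle. The brain values were 80.8 and 65.3 CPM in the E14.5 areas and 97.6 and 90.9 CPM in the E15.5 areas. Those of cartilage were 83.1, 58.3, 76.7 and 52.4 CPM in the same order, so that the ranges overlapped and brain was the higher in 3 of 4 areas. All brain values lay above all muscle values, which ran from 35.2 to 47.7 CPM. The test gave 0.64 ± 0.08 for brain (adjusted p = 1.16e-07, edgeR) and -0.64 ± 0.08 for muscle (adjusted p = 3.50e-06, edgeR). The differences in bone (0.02 ± 0.08), cartilage (0.11 ± 0.09) and skin (-0.13 ± 0.09) did not pass. With the tissues taken from k-means clusters instead of markers, Cldn5 was lower in cartilage (-0.35, adjusted p = 0.00732, edgeR) and higher in skin (0.22, adjusted p = 0.0474, edgeR).

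**Figure D2:**
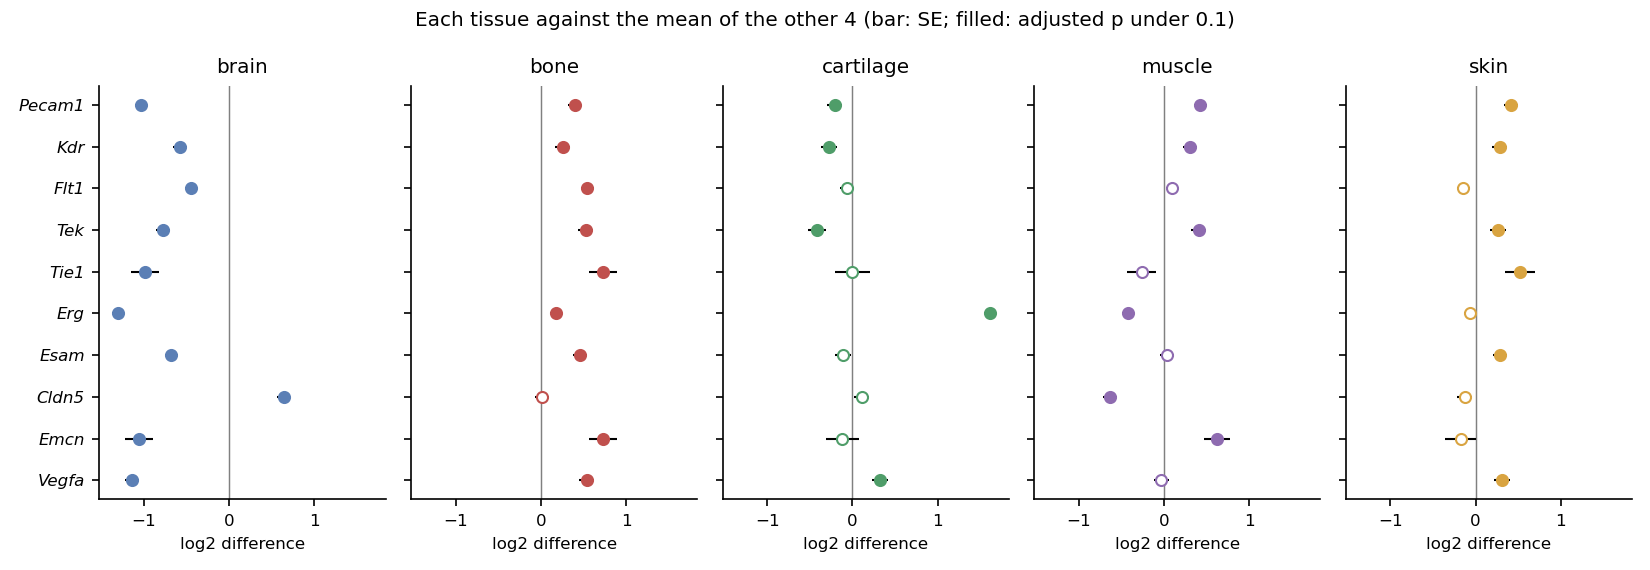
Log2 difference of each tissue from the mean of the other 4 for the 10 genes (horizontal axes), from 1 edgeR fit of 20 sums, with bars of 1 SE and filled points at an adjusted p under 0.1. The panels show 9 negative brain values beside the positive Cldn5, and the Erg value of 1.61 in cartilage.

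By tissue, 9 of the 10 genes were called higher in bone, all but Cldn5, and 0 lower, where 24.0% of all genes were higher and 25.7% lower. In muscle 4 were higher (Pecam1, Kdr, Tek and Emcn) and 2 lower (Erg and Cldn5), against 25.5% and 25.6% of all genes. In skin 6 were higher (Pecam1, Kdr, Tek, Tie1, Esam and Vegfa) and 0 lower, against 27.5% and 27.7% of all genes. The bone and skin splits depend on the scaling, since without TMM normalization 2508 genes were called higher and 4959 lower in bone instead of 3301 and 3534, and 4854 and 2884 in skin instead of 3782 and 3817. In bone that scaling also moved the median of all genes from -0.02 to -0.12, and ended the calls of Kdr (0.16, adjusted p = 0.146, edgeR) and Erg (0.08, adjusted p = 0.379, edgeR).

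Several of the small differences rest on single areas. In bone the Kdr call was lost without the E14.5 area of replicates 2 to 4 (0.18, adjusted p = 0.265, edgeR) and without the E15.5 area of replicates 2 to 4 (0.24, adjusted p = 0.138, edgeR). In skin, leaving out the E15.5 area of replicates 2 to 4 ended the calls of Kdr (0.25, adjusted p = 0.114, edgeR) and Tek (0.13, adjusted p = 0.478, edgeR). Leaving out the E15.5 replicate 1 area ended those of Kdr (0.23, adjusted p = 0.135, edgeR) and Tie1 (0.47, adjusted p = 0.136, edgeR) in skin. Leaving out the E14.5 area of replicates 2 to 4 ended those of Tie1 (0.45, adjusted p = 0.132, edgeR) and Esam (0.21, adjusted p = 0.183, edgeR) in skin. Without the shallow E14.5 replicate 1 area, the calls of the 10 genes changed only for Erg in bone, given above, and for Tie1 between the 2 zones of the brain. All 6 muscle calls were also made without any 1 of the areas. When every sum was thinned to the smallest, 396923 UMIs, 8 of the 10 genes could still be tested, and 1 gene was higher and 6 were lower in brain, while 2 were higher in bone and 1 was higher in skin.

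The single section of the E15.5 replicate 1 area can be read spot by spot, over 989 spots. Of the 20 spots in the highest 2% for Cldn5, at or above 270.4 CPM, 19 were brain spots, of which the section holds 255. For Vegfa 0 of the 20 highest spots were in brain, for Pecam1 1 and for Erg 1. The highest Pecam1 spots fell mostly outside the 5 tissues (8 with no tissue) and in skin (6). For Erg, 4 of the 20 were among the 24 cartilage spots, 4 among the 49 peripheral nerve marker spots and 9 had no tissue. These are counts in 1 section, with no test.

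**Figure D3:**
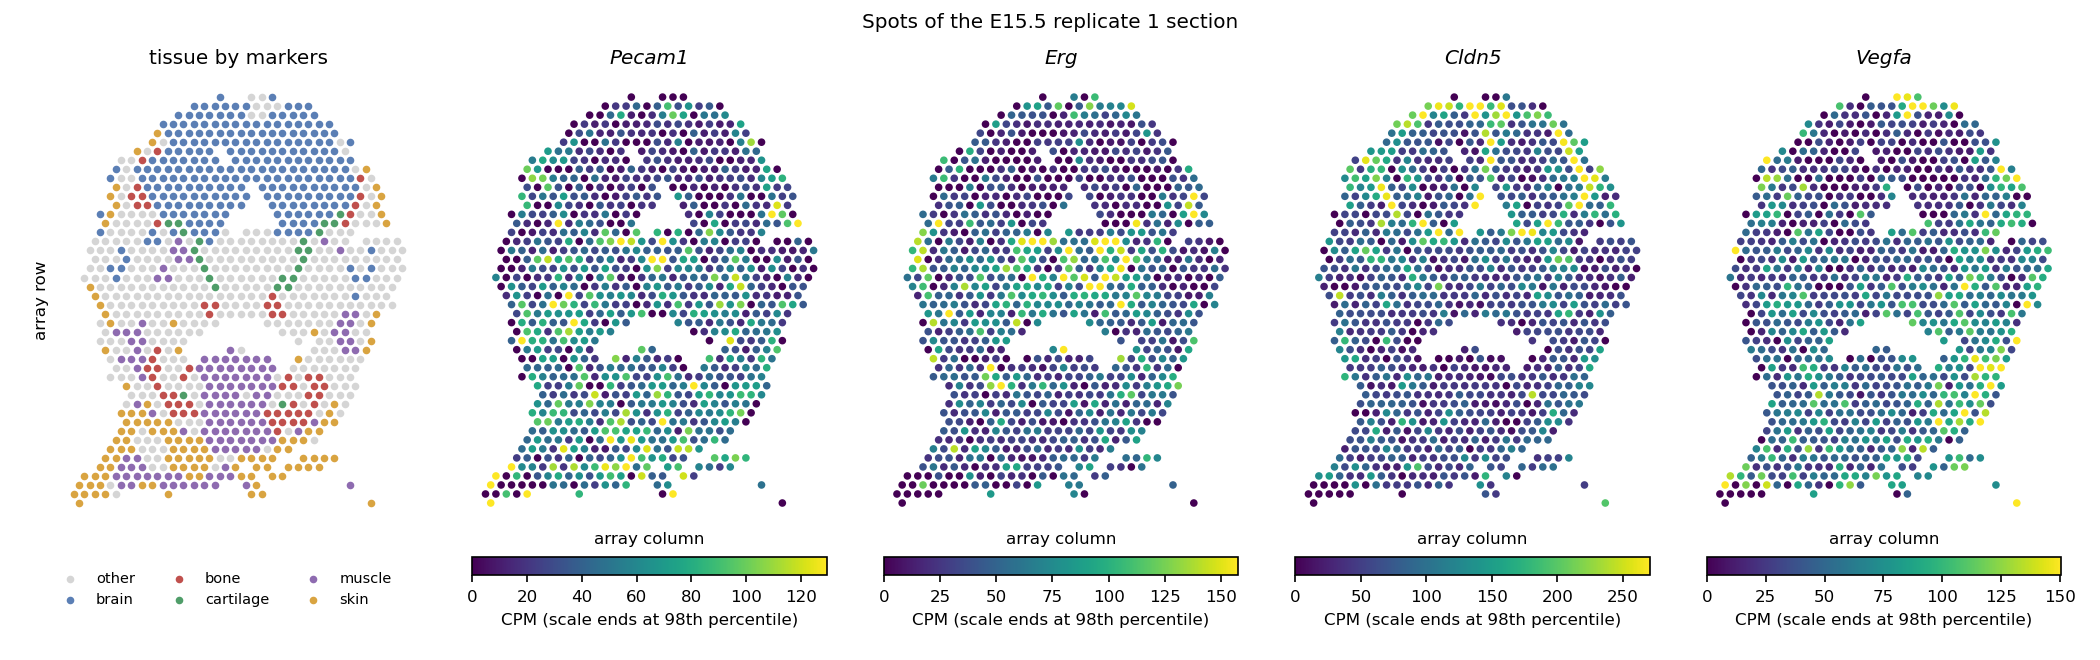
The 989 spots of the E15.5 replicate 1 section at their array row and column, colored by tissue (first panel) and by CPM of Pecam1, Erg, Cldn5 and Vegfa, with each color scale ending at the 98th percentile of that gene. High Cldn5 spots trace bands within the brain at the top of the section, where Vegfa is low, and high Erg spots gather at the midline below the brain.

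Levels in neighboring spots had a mean Pearson r over the 4 areas of 0.36 for Erg (range 0.13 to 0.48), 0.31 for Kdr (0.09 to 0.48), 0.31 for Cldn5 (0.18 to 0.51), 0.28 for Tek (0.10 to 0.40), 0.25 for Vegfa (0.02 to 0.47) and 0.10 for Tie1 (0.04 to 0.20). The ranges overlapped, and Erg was above Kdr, Cldn5 and Vegfa in 2 of 4 areas, so no order is read from them. These are correlations across spots of the same libraries, which share depth, and in such sparse counts the low ones are no finding. The 10 non-member genes whose spots most resembled the mean of the 9 endothelial genes were Col3a1 (mean r of 0.43 over 4 areas), Fn1, Selenop, Cdh5, Egfl7, Col4a2, Col4a1, Cxcl12, Plxnd1 and Fstl1 (0.40), out of 8680 genes at 20 CPM or more. Cdh5 (0.42), Egfl7, Plxnd1 and the basement membrane collagens Col4a1 and Col4a2 are known from vessels, and Col3a1, Fn1 and Fstl1 from connective tissue. For Vegfa the 10 were Serpinh1 (0.28), Lgals1, Col5a2, Col1a2, Fbn2, Fstl1, Laptm4a, Col3a1, Col1a1 and Thbs2 (0.25). Fstl1 and Col3a1 stood in both lists. Vegfa and the mean of the endothelial genes correlated across all spots of an area at 0.10 to 0.28, values that carry the differences between tissues. Within the spots of 1 tissue the 4 areas gave 0.15 to 0.34 in brain, -0.04 to 0.32 in skin, -0.04 to 0.12 in muscle, -0.16 to 0.13 in bone and -0.19 to 0.20 in cartilage.

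Within brain, the marker-based progenitor zone (326 spots, next to the ventricle in the textbook arrangement) was set against the neuron zone (1183 spots). Cldn5, Esam and Tie1 were lower in the progenitor zone and 0 of the 10 genes were higher, where 29.9% of 12516 genes were lower and 30.2% higher. The count of lower genes is near that share and is no finding, so the genes are read by their sizes. Cldn5 held 53.6, 47.5, 50.2 and 65.2 CPM in the progenitor zone and 91.8, 70.7, 114.2 and 96.2 CPM in the neuron zone of the same areas. The 2 zones did not overlap, and the difference was -0.79 ± 0.11 on the log2 scale (adjusted p = 0.000762, edgeR). Esam held 23.6, 18.4, 19.5 and 23.9 CPM against 35.8, 25.4, 40.5 and 30.5 CPM, again with no overlap, and differed by -0.64 ± 0.13 (adjusted p = 0.00465, edgeR). Tie1, with 3 to 13 UMIs in the progenitor zone of an area, was lower in 4 of 4 areas by -0.75 ± 0.28 (adjusted p = 0.0496, edgeR). Its call was lost on leaving out any 1 area, with adjusted p from 0.106 to 0.117 by edgeR, and in DESeq2 (adjusted p = 0.181).

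The other 7 genes did not pass the test between the zones. Kdr differed by 0.03 ± 0.12, Pecam1 by -0.05 ± 0.12, Erg by -0.07 ± 0.13, Flt1 by -0.09 ± 0.12, Vegfa by 0.14 ± 0.13, Tek by -0.33 ± 0.20 and Emcn by 0.44 ± 0.29. Tek was called lower without the E14.5 area of replicates 2 to 4 (-0.60, adjusted p = 0.0417, edgeR). Among the receptor partners listed below, Nrp1 (-0.59 ± 0.13), Nrp2 (-1.26 ± 0.12) and Angpt1 (-0.97 ± 0.10) were lower in the progenitor zone and the ligand gene Vegfb higher (0.28 ± 0.12), all 4 named after their values were seen.

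**Figure D4:**
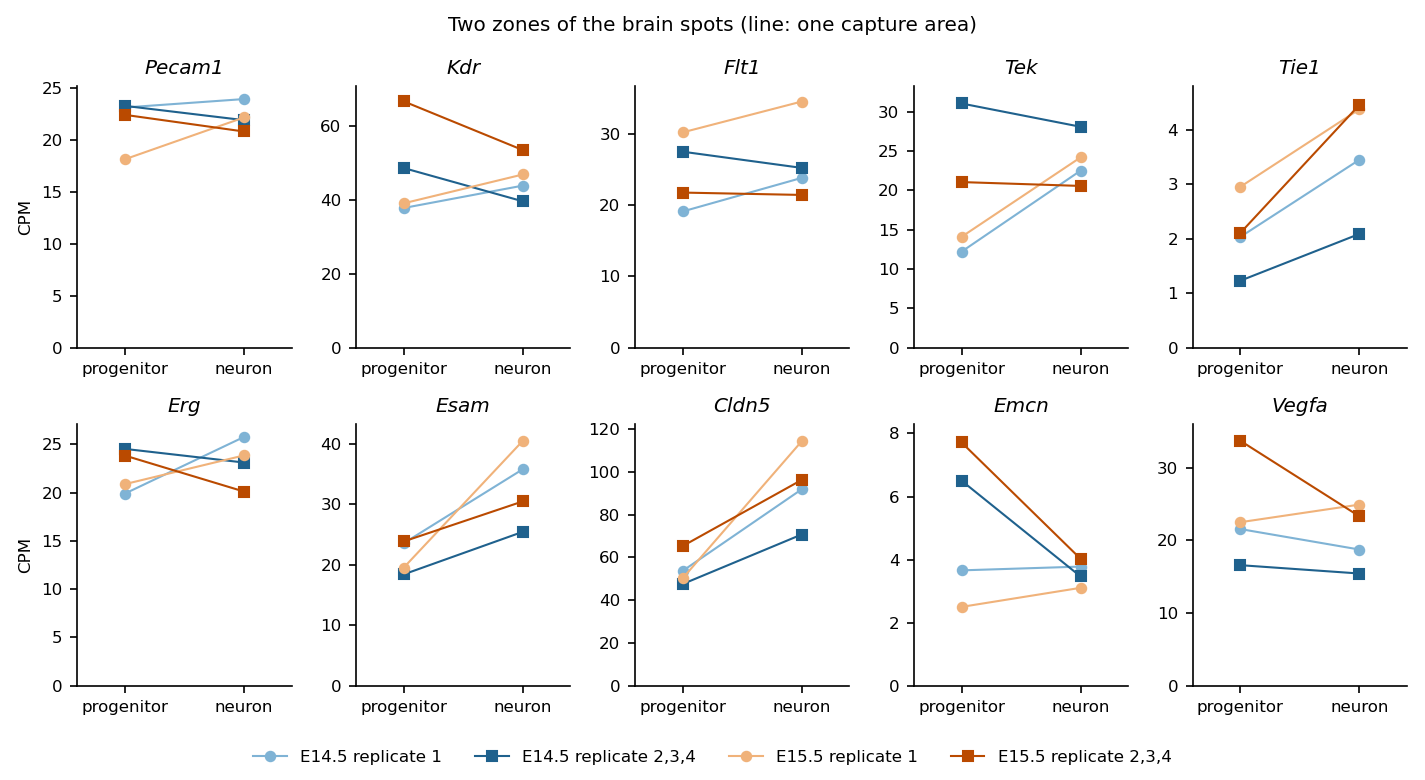
CPM of each of the 10 genes (vertical axes) in the progenitor and neuron zones of the brain spots, with a line joining the zones of each of the 4 capture areas. Cldn5 and Esam rise from the progenitor to the neuron zone in all 4 areas without overlap, and Tie1 rises in all 4 at a few CPM.

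The genes around the 10 were counted from lists, and every such count is read beside the share of all genes called. That share was 40.6% higher and 44.3% lower in brain, 24.0% and 25.7% in bone and 21.6% and 17.4% in cartilage. In muscle it was 25.5% and 25.6%, in skin 27.5% and 27.7%, and in the progenitor zone of brain 30.2% and 29.9%. List counts near these shares are no finding. Of 11 partners of the VEGF and angiopoietin pathways that were tested, 0 were higher and 10 lower in brain, 8 higher and 1 lower in bone, 2 and 1 in cartilage, 6 and 3 in muscle and 5 and 3 in skin. Their median log2 difference was -0.78 in brain and 0.50 in bone, beside -0.05 and -0.02 over all genes tested. The 4 with the smallest p in brain were Vegfd (-2.58 ± 0.17) and Vegfc (-1.36 ± 0.11), ligands of the lymphatic branch, their receptor Flt4 (-1.62 ± 0.15) and Pgf (-1.84 ± 0.20), a ligand of Flt1. Vegfd held 4.06 ± 0.99 CPM in brain, 18.8 ± 5.75 in bone, 49.2 ± 11.2 in skin and 51.2 ± 8.01 in muscle. Angpt1, which activates the Tek receptor, held 177.3 ± 24.0 CPM in bone and 42.6 ± 4.38 to 60.7 ± 10.1 CPM in the other tissues, and was named after its values were seen.

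Of the 25 other endothelial genes, 0 were higher and 24 lower in brain, and Notch4 alone did not pass (0.02, adjusted p = 0.833, edgeR). Plvap, which forms the diaphragms of leaky vessels, was lower by a log2 difference of -2.02 ± 0.09, Cdh5 by -1.43 ± 0.06, the sialomucin Cd34 by -1.63 ± 0.08 and the apelin receptor Aplnr by -1.19 ± 0.08. Plvap held 17.2 ± 2.95 CPM in brain and 91.7 ± 18.9 in bone. Of the same 25 genes 20 were higher and 0 lower in bone, 12 and 0 in muscle and 15 and 1 in skin. Their median difference was -0.92 in brain and 0.42 in bone. In the brain zones 2 of 24 were higher in the progenitor zone and 11 lower.

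Genes of the brain endothelial barrier did not all follow Cldn5. Of 15 tested, 4 were higher and 9 lower in brain, 5 and 5 in bone, 5 and 6 in cartilage, 3 and 6 in muscle and 9 and 2 in skin, with a median of -0.43 in brain. The 4 higher in brain, named for that reason, were the transporter genes Slco1c1 (3.28 ± 0.23), Abcb1a (1.51 ± 0.23) and Slc7a5 (0.41 ± 0.08) and the forkhead gene Foxq1 (0.92 ± 0.14). Slco1c1, a thyroid hormone transporter, held 11.6 ± 2.76 CPM in brain and 0.56 ± 0.45 to 3.26 ± 1.27 CPM in the other tissues. Itm2a (-2.88 ± 0.09), Adgra2 (-2.41 ± 0.10) and Reck (-1.33 ± 0.08), the latter 2 co-receptors of Wnt signalling in brain vessels, were lower in brain. All 3 are also known outside vessels, and Itm2a held 2306 ± 155 CPM in muscle.

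Mural genes, which mark the pericytes and smooth muscle around vessels, were higher in brain for 3 of 13 (Higd1b, 2.87 ± 0.25; Vtn, 2.01 ± 0.28; Rgs5, 0.52 ± 0.14) and lower for 10, led by Cspg4 (-2.51 ± 0.06), Tagln (-2.33 ± 0.10), Notch3 (-1.48 ± 0.07) and Acta2 (-3.01 ± 0.13). In cartilage 4 were higher and 2 lower, and Cspg4, also a cartilage proteoglycan gene, was 2.46 ± 0.06 higher there. In bone 4 were higher and 1 lower, in muscle 6 and 3, and in skin 8 and 3. The median mural difference was -1.48 in brain and 0.15 in cartilage.

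Genes that respond to hypoxia, the stimulus best known to raise Vegfa, formed a list of which 17 were tested. In brain 4 were higher and 13 lower, with a median of -0.61, in bone 6 and 2, in cartilage 5 and 2, in muscle 4 and 8 and in skin 10 and 2. The prolyl hydroxylases P4ha2 (-2.92 ± 0.08) and P4ha1 (-1.84 ± 0.10) of collagen synthesis and the hexokinase gene Hk2 (-1.85 ± 0.16) were lower in brain, and the glycolytic regulator Pfkfb3 was higher (1.14 ± 0.11). P4ha2 held 360.6 ± 64.3 CPM in bone and 26.0 ± 7.62 in brain. Car9, a carbonic anhydrase, was 2.34 ± 0.19 higher in cartilage at 10.1 ± 1.54 CPM, and was named after its values were seen.

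Markers of blood and of other cells were counted in the same tissues, and not every list followed the 10 genes. Erythroid genes, of the red cells that vessels carry, were lower in brain for 10 of 10 (Ermap, Hba-a2, Hbb-bt and Alas2 from -1.93 to -0.67), higher in bone for 7 and lower for 0. Their summed level was 2399 to 4129 CPM in brain and 5477 to 6641 CPM in bone. In cartilage 0 were higher and 5 lower, in muscle 6 and 0 and in skin 7 and 0. Macrophage genes were lower in brain for 10 of 10 (Mrc1, C1qa, C1qb and Csf1r from -1.55 to -0.89), with 3 higher in bone, 6 lower in cartilage, 5 higher in muscle and 8 higher in skin, and 0 in the opposite direction in each. Of 5 platelet genes 1 was higher in brain (Gp1bb, 2.03 ± 0.18) and 4 lower (Pf4, Itga2b and Ppbp among them). In bone and cartilage 1 was higher and 0 lower, in muscle 0 and 1, and in skin 2 and 1. Of 3 lymphatic genes Lyve1 (-1.58 ± 0.23) and Pdpn (-0.55 ± 0.14) were lower in brain, and Prox1, also a gene of neurons, gave 0.33 ± 0.20 and did not pass. Lymphatic genes numbered 0 higher and 1 lower in bone, 0 and 2 in cartilage, 2 and 0 in muscle and 1 and 0 in skin. Summed macrophage genes held 128 to 156 CPM in brain and 198.5 to 295.8 CPM in bone, and no marker of either list was used to choose the 10 genes. The part of these cells in the differences of the 10 genes was not tested. In the brain zones the partners numbered 1 higher and 4 lower of 10, the barrier genes 4 and 4 of 15, the mural genes 1 and 3 of 12, the lymphatic genes 2 and 0 of 2, the hypoxia genes 6 and 5 of 16, the erythroid genes 1 and 0 of 6, the macrophage genes 0 and 0 of 9 and the platelet genes 0 and 1 of 3.

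Between the stages, 0 of the 10 genes were called in the sums over all tissue spots, and 0 of 15609 genes (0.0%) were called at all by edgeR, with 930 at an unadjusted p under 0.05. DESeq2 called 28 genes and none of the 10, and edgeR called 78 genes, again none of the 10, without the E15.5 replicate 1 area. Vegfa held 33.3 and 27.96 CPM at E14.5 and 47.6 and 45.3 CPM at E15.5. The stages did not overlap, and the difference of 0.54 ± 0.24 on the log2 scale had an adjusted p of 0.769 by edgeR. In simulated counts this fit recovered 18% of genes changed by a log2 difference of 1, so a difference of this size could be missed. Section A of the E14.5 area of replicates 2 to 4, the shallow one, held 47.3 CPM (exact Poisson interval 43.0 to 52.0), among the values of the E15.5 sections, which ran from 44.3 to 47.5 CPM. The other E14.5 sections ran from 21.2 to 33.3 CPM. Tie1 held 4.79 and 3.33 CPM at E14.5 and 7.72 and 6.33 CPM at E15.5, and differed by 0.75 ± 0.35 (adjusted p = 0.769, edgeR). The other 8 genes differed by -0.09 to 0.22 on that scale, and most of these values rested on single areas. Leaving out each area in turn moved Tek from -0.25 (without E14.5 replicate 1) to 0.54 (without the E14.5 area of replicates 2 to 4) and Emcn from -0.48 (without the E15.5 area of replicates 2 to 4) to 0.43 (without E15.5 replicate 1). Cldn5 ran from -0.31 to 0.13, Flt1 from -0.11 to 0.28 and Erg from -0.22 to 0.05, each changing sign, while Kdr ran from 0.05 to 0.38, Esam from 0.07 to 0.35 and Pecam1 from 0.10 to 0.16.

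Counting genes whose 2 E15.5 areas both lay above, or both below, the E14.5 areas, 4 of the 10 were higher over all tissue spots (Pecam1, Kdr, Tie1 and Vegfa) and 0 lower, where 24.2% of genes at 3 CPM or more were higher and 16.3% lower. In brain 4 were higher (Kdr, Tie1, Cldn5 and Vegfa; 15.3% of genes) and 2 lower (Pecam1 and Erg; 10.6%). In bone 0 were higher (14.4%) and 1 lower (10.2%), and in cartilage 1 was higher (Tie1, 13.5%) and 1 lower (10.1%). In muscle 1 was higher (Vegfa, 18.1%) and 1 lower (9.81%). In skin 2 were higher (Tie1 and Cldn5, 16.6%) and 1 lower (11.8%). For Pecam1 the ratio of the E15.5 mean to the E14.5 mean was 1.14 over all tissue spots but 0.850 to 0.962 within the tissues. For Kdr it was 1.21 over all tissue spots, 1.20 in brain and 0.929 to 1.01 in the other tissues. The tissues enter the sums over all tissue spots in different proportions, and their part in these differences was not tested.

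Erg was among the lower genes in each of the 5 tissues. The tissue sums come from the same capture areas, so these are not 5 independent results. The share of all genes that were lower in all 5 tissues was not counted, so no pattern across tissues is read from this. In bone Erg held 61.5 and 53.7 CPM at E14.5 and 46.0 and 43.4 CPM at E15.5, in skin 49.2 and 56.7 against 41.1 and 45.04 CPM, and in muscle 38.4 and 40.7 against 34.4 and 32.4 CPM. In cartilage it held 120.9 and 130.4 against 100.7 and 118.4 CPM and in brain 24.1 and 23.5 against 23.1 and 20.8 CPM. The ratio of the E15.5 mean to the E14.5 mean was 0.776 in bone, 0.814 in skin, 0.843 in muscle, 0.872 in cartilage and 0.922 in brain. Over all tissue spots, where the tissues enter in different proportions, the ratio was 0.982 and the stages overlapped. Fits within 1 tissue, chosen after these values were seen, gave log2 differences of -0.38 ± 0.27 in bone to -0.15 in brain, and Erg was called in none. In those fits edgeR called 0.0% of genes in brain, bone, cartilage and muscle and 0.00778% in skin.

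**Figure D5:**
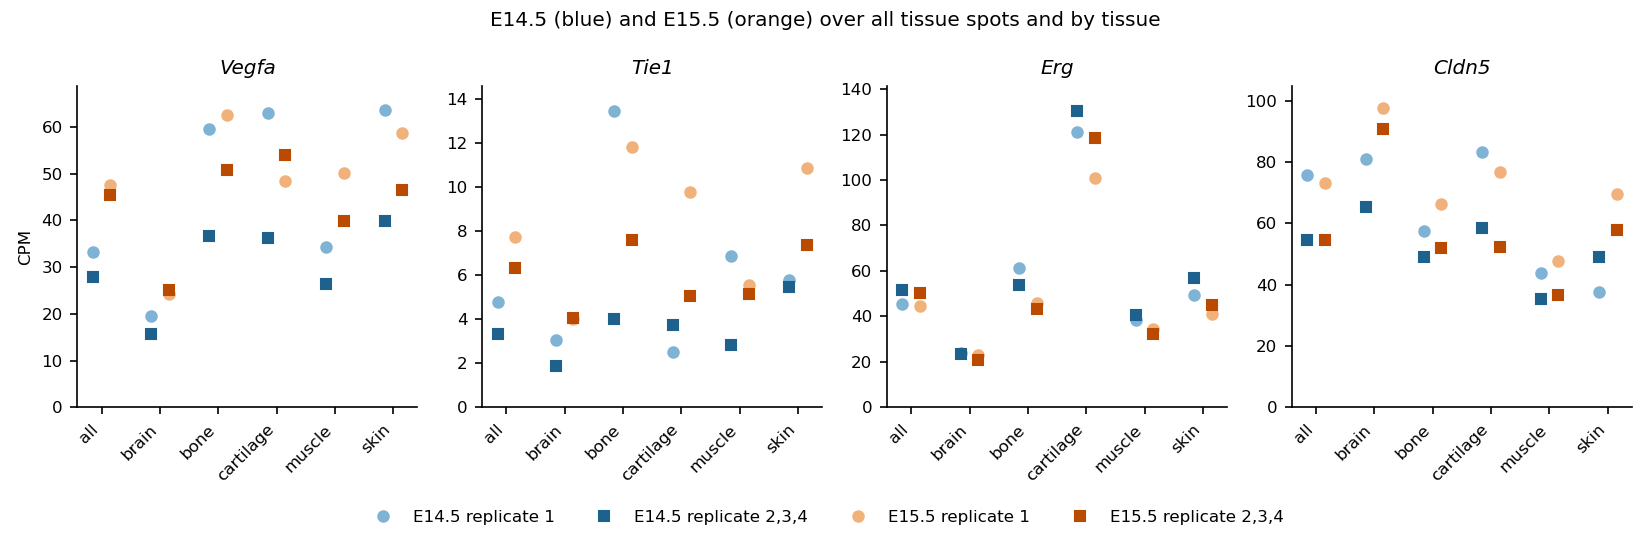
CPM (vertical axes, linear, from 0) of Vegfa, Tie1, Erg and Cldn5 over all tissue spots and by tissue, with a point for each capture area, blue for E14.5 and orange for E15.5. Erg is lower at E15.5 in each tissue but not over all spots, where the stages overlap, and Vegfa is higher in both E15.5 areas over all spots. In bone, cartilage and skin the Vegfa points of the stages overlap. The tissues share the same capture areas, so their points are not independent.

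A test of whether the stage difference varied between the 5 tissues called 0 of the 10 genes and 5 of 14248 genes (0.0351%), with 341 at an unadjusted p under 0.05. The smallest unadjusted p among the 10 in that edgeR test was 0.258, for Cldn5, whose stage difference in cartilage minus that in brain was -0.41 on the log2 scale. In the gene lists around the 10, 0 genes were called between the stages and 0 in this test.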

How the data were processed

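The files of the 4 Visium capture areas hold counts of UMIs for every gene in each spot, deposited by the authors without normalization. Per the file headers, Space Ranger 2.0.0 made those of the areas with 3 sections, and version 1.3.1 those of the areas with 1. The submitters' processing notes name the mouse build mm10, and the probe set and annotation were not given in the sources used here. These counts were summed over the spots of an area and a tissue. Spots came from the deposited tissue positions, and 12 tissue spots without counts and 19 barcodes off tissue were left out. Each spot was scored per tissue as the summed marker level divided by its 99th percentile, and was given to the highest tissue at or above 0.3. In the main fits neither spots nor sections of 1 area were counted as replicates, and sections served as samples only in an alternative named below. Genes sharing a symbol numbered 22, none of them among the 10.

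Sums were tested with edgeR 4.0.16 in R 4.3.3 (quasi-likelihood test, TMM, filterByExpr, Benjamini-Hochberg over all genes tested, adjusted p under 0.1), with the area as a block for tissues and zones, and DESeq2 1.42.0 as an alternative. SEs come from the fitted weights and dispersion. The fits were tested on simulated counts with 200 changed genes. Of genes changed by a log2 difference of 1 either way, the stage fit recovered 18% and the interaction fit 51%. The zone fit recovered 88% and the tissue fit 100%. At a log2 difference of 2 the recovery was 95% for stage and interaction, 97% for zones and 100% for tissues. An absent call for stage or interaction thus does not show equal levels. Levels, correlations across spots and 12 k-means clusters were computed in Python 3.11.15 with scipy 1.17.1 and scikit-learn 1.9.0, and drawn with matplotlib 3.10.9. All 10 genes were named in every comparison, with up to 4 genes of each other list by the smallest p in brain and the 10 genes most like each pattern. The members, lists and tissue markers were chosen with earlier results of these data known, so no pattern of theirs is independent support. The alternatives were another normalization, tool, filter, threshold and depth, each area left out in turn, spots under 1000 UMIs left out, sections as samples, a replicate block and 5 other ways to assign spots. Totals of 15438992 to 109127953 UMIs per area set the counting error, and sparse genes such as Tie1 and Emcn have the widest intervals.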

Additional observations from a re-analysis of the deposited data

How the results depend on the processing

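Over the alternatives, 945 of 1088 values of the 10 genes kept their direction and their side of the threshold, 70 changed sign without being called in either fit, 63 lost and 6 gained a call, and 4 turned. The 4 were Kdr in bone after thinning (-0.022), and, with k-means clusters as tissues, Cldn5 in cartilage (-0.35), Erg in skin (0.20) and Cldn5 in skin (0.22); the cause was not tested. No alternative called a member for stage or for the stage by tissue interaction.

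Thinning every sum to the smallest total left 8 of the 10 genes to test, and fewer counts per sum. It left 2 members higher in bone, 1 higher and 0 lower in cartilage, 2 higher and 1 lower in muscle and 1 higher in skin, with 6041 genes called in brain, 2304 in bone, 1625 in cartilage, 2487 in muscle and 2777 in skin, against 11685, 6835, 5371, 7031 and 7599. In cartilage, 1 member was higher with k-means clusters and 1 without mixed spots (43 cartilage spots), and the members lower numbered 1 at a score threshold of 0.5, 5 with k-means clusters and 0 without mixed spots, which called 2026 genes. Leaving out each area in turn gave 1 to 2 members higher, 1 to 3 lower and 3557 to 5949 genes in cartilage, the lowest without the E15.5 area of replicates 2 to 4. In skin, 2 members were higher without mixed spots, and 1 was lower at thresholds of 0.2 and 0.5 and without the competing tissues (eye, nerve and olfactory epithelium).

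For stage, DESeq2 called 28 genes, a fit within skin 1 and the fits leaving out an area 0 to 78, against 0. For the interaction, 5 genes were called, against 2 at an adjusted p under 0.05, 3 without TMM, 8 in DESeq2, 38 with no filter, 1 after thinning, 2 with sections as samples, 12 at a threshold of 0.2, 27 with k-means clusters and 0 to 92 leaving out each area in turn (32 without the E15.5 replicate 1 area).

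The replicate labels are shared by the stages, but nothing ties the same-labelled areas to a litter or a day. With the replicate block, 0 genes were called for stage, as without it, and Vegfa differed by 0.54 (adjusted p = 0.472, edgeR). The deviations of the replicate 1 areas from their stage means correlated at 0.25 across 15609 genes, which are not independent replicates.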

Other observations

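In a split of all tissue spots into 12 k-means clusters, clusters given to none of the 5 tissues held the highest mean level of 8 of the 10 genes, all but Pecam1 and Erg. Kdr, the main VEGF receptor, was highest in the cluster led by the lens crystallin genes Crygd and Cryba2 (423 spots), with a mean of 102.0 CPM over the 4 areas (range 91.9 to 116.8). In the clusters led by Neurod2 and Neurod6 and by Ttr and Mlc1, both given to brain, it held 45.4 CPM and 28.5 CPM. In the crystallin cluster the other genes of the 10 ranked 7 to 11 among the 12 clusters, with Pecam1 at 22.1 CPM and Esam at 29.7 CPM. Cldn5 was highest in the cluster led by Matn1 and Prph (424 spots), at 135.3 CPM (range 95.3 to 198.1), above 97.6 CPM in the cluster led by Neurod2 and Neurod6 and 94.9 CPM in the cluster led by Ecel1 and Tmem130. The cluster led by Matn1 and Prph, which mixes genes of cartilage and of neurons and was given to no tissue, was also the highest for Flt1 (47.3 CPM), Esam (66.1 CPM) and Tie1 (9.13 CPM). Tek was highest in the cluster led by Krt17 and Sostdc1 (55.8 CPM). Emcn (25.4 CPM) and Vegfa (58.8 CPM) were highest in the cluster led by Tnni3 and Myl2, which had a median of 1370 UMIs per spot and at least 20 spots in only the 2 E14.5 areas. Erg held 109.6 CPM in the cartilage cluster led by Matn1 and Olfm5, 74.3 CPM in the cluster led by Matn1 and Prph and 70.5 CPM in the cluster led by Gfy and Ugt2a1, genes of the olfactory epithelium. Vegfa was lowest in the cluster led by Ttr and Mlc1, at 14.95 CPM (range 11.5 to 18.9). The clusters were made from these same counts, so the values are a description with no test.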
